A study of Mus musculus with 8 samples.

Results

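The genes described here are 51 alcohol, aldehyde, retinol and steroid dehydrogenases measured in mouse hepatocytes. Their symbol begins with Adh, Aldh, Akr, Hsd, Dhrs or Rdh followed by a digit, and each had a probe detected above the negative control beads (detection p-value of at most 0.05) in 1 or more of 8 arrays. Each gene was represented by its detected probe of the highest mean, and the 51 genes were compared within a table of 14850 features (9640 named genes and 5210 probes without a name). All the mice carried Gata4 fl/fl, that is, both alleles of the transcription factor gene Gata4 flanked by loxP sites, on the background CD1 x 129S1/SvImJ, and were 2 to 3 months old. They had been injected intravenously 2 weeks earlier with AAV8-Tbg-Cre (AAV-Cre, 4 samples), a viral vector for the recombinase that cuts out DNA between loxP sites, or as control with AAV8-Tbg-GFP (AAV-GFP, 4 samples). The vectors use the hepatocyte promoter Tbg, so other liver cells left in a preparation would keep the unexcised gene. Total RNA with an integrity number above 7.5 from each sample was hybridised to 1 mouse whole genome bead array.

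Alcohol dehydrogenases (Adh) oxidise alcohols, retinol among them, to aldehydes, and aldehyde dehydrogenases (Aldh) oxidise the aldehydes to acids. Retinol dehydrogenases (Rdh) and the related short chain dehydrogenases (Dhrs) interconvert retinol and retinal on intracellular membranes, and several also accept steroids. Aldo-keto reductases (Akr) and hydroxysteroid dehydrogenases (Hsd) reduce or oxidise the keto and hydroxyl groups of steroids, bile acid precursors and other carbonyls. The hepatocyte is a main site of all of these reactions, and the level of many of these genes in mouse liver differs between the sexes.

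The arrays were examined before the genes. The arrays had 14788 to 16387 detected probes, with the fewest in AAV-Cre replicates 3 (14788) and 4 (15067), and 45 to 47 of the 51 genes were detected in each array. The single Gata4 probe lay near background at 5.02 to 5.37 on the log2 scale in AAV-GFP and 5.72 to 6.28 in AAV-Cre, passed detection in 1 array only, and so does not check the excision. The X inactivation transcript Xist was detected in AAV-GFP replicates 1 and 4 and in no other array, although the labels give no sex. Those 2 arrays were also lowest for the Y gene Uty (6.08 and 5.93, against 7.09 to 7.56 elsewhere). The Y gene Kdm5d was low in them (5.47 and 5.42) but also in AAV-Cre replicates 3 and 4 (5.96 and 5.37). The female-biased A1bg was 14.36 and 16.07 in AAV-GFP replicates 1 and 4 and 5.05 to 6.55 elsewhere, and Sult2a1 5.44 to 7.13 throughout. AAV-GFP thus mixed arrays with and without Xist, and AAV-Cre held only arrays without it. Of 9 listed hepatocyte markers 7 were measured, the defining genes Alb and Hnf4a among them, with 1 higher and 6 lower in AAV-Cre. Their summed linear signal was 78375 to 91906 in AAV-GFP and 64322 to 99571 in AAV-Cre. The Alb probe lay at 9.10 to 9.84, where F10 lay at 15.13 to 15.50, so Alb adds little to this sum. Tat was detected in 1 array only. Of 12 listed markers of sinusoidal endothelial cells 9 were measured and all 9 were higher in AAV-Cre, 3 of them at an unadjusted p under 0.05, and their summed linear signal was 4296 to 8765 in AAV-GFP and 6433 to 9320 in AAV-Cre. Of 12 Kupffer cell and macrophage markers 9 were measured, all 9 were higher in AAV-Cre, 4 of them at an unadjusted p under 0.05, and their summed signal was 1156 to 1995 in AAV-GFP and 1836 to 2867 in AAV-Cre. Of 12 markers of stellate cells, which store retinoids, and of fibroblasts 8 were measured and 6 were higher in AAV-Cre (2 of them at that p). Lrat (-0.32) and Reln (-0.14) were lower. The summed signal of the 8 was 3919 to 8344 in AAV-GFP and 6350 to 7219 in AAV-Cre. The 2 at that p, Acta2 and Pdgfra, and also Col3a1 were detected in AAV-Cre only. They entered through the group where they were higher, as did the macrophage marker Marco. Of 5 male-biased liver genes 4 were measured and all 4 were higher in AAV-Cre, 3 of them at that p. In bulk samples fewer cells of a type and less RNA per cell cannot be told apart. The part of these cells in the differences given next was not tested. Fits with Xist as a term and without the 2 Xist-positive arrays are given below. They give the same estimates, because Xist was detected in AAV-GFP arrays only, and are not separate checks. No AAV-Cre array was Xist-positive, so a difference by sex within AAV-Cre was not tested.

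No gene of the 6 families passed the test between the groups. At an adjusted p of 0.25 (limma, Benjamini-Hochberg over all 14850 features) 0 of the 51 genes were called, where 1 feature or 0.00673% of all features was called, and the adjusted p of the 51 genes ran from 0.535 to 0.985. SAM, the statistic named in the study's methods, called 0 of the 51 on these values. There it called 0 of the 14850 features, or 28 with a finer grid of cut-offs. On the authors' normalized table it called 322 of 12052 features, 290 of them higher in AAV-Cre. Of the 51 it called 3 there (Hsd3b2, Aldh16a1 and Hsd17b11, all higher in AAV-Cre), where limma called 0 of the 51. By the test used here the differences are descriptions. Array values are normalized log2 intensities in the order of replicates 1 to 4 of each group, and differences are given as AAV-Cre minus AAV-GFP on the log2 scale with the standard error of the fit. At an unadjusted p under 0.05, 4 of the 51 genes (7.84%) were higher in AAV-Cre against 4.99% of all features. Lower were 9 of the 51 (17.6%) against 4.07% of all features. One of these, Akr1b8, entered the table only through AAV-GFP, where it was detected, and 48 of the 51 genes were detected in both groups. Among the 12733 features detected in both groups, fitted on their own, 5 of the 48 genes (10.4%) were higher against 4.99% and 7 (14.6%) lower against 3.68%. The groups did not overlap, with every AAV-Cre array above every AAV-GFP array, in 3 of the 51 genes (5.88%) against 3.1% of all features. Every AAV-Cre array lay below every AAV-GFP array in 4 of the 51 (7.84%) against 1.7% of all features. Over the 51 genes 23 estimates were above 0 and 28 below, with a median of -0.021, and the median over all features was 0.042.

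**Figure D1:**
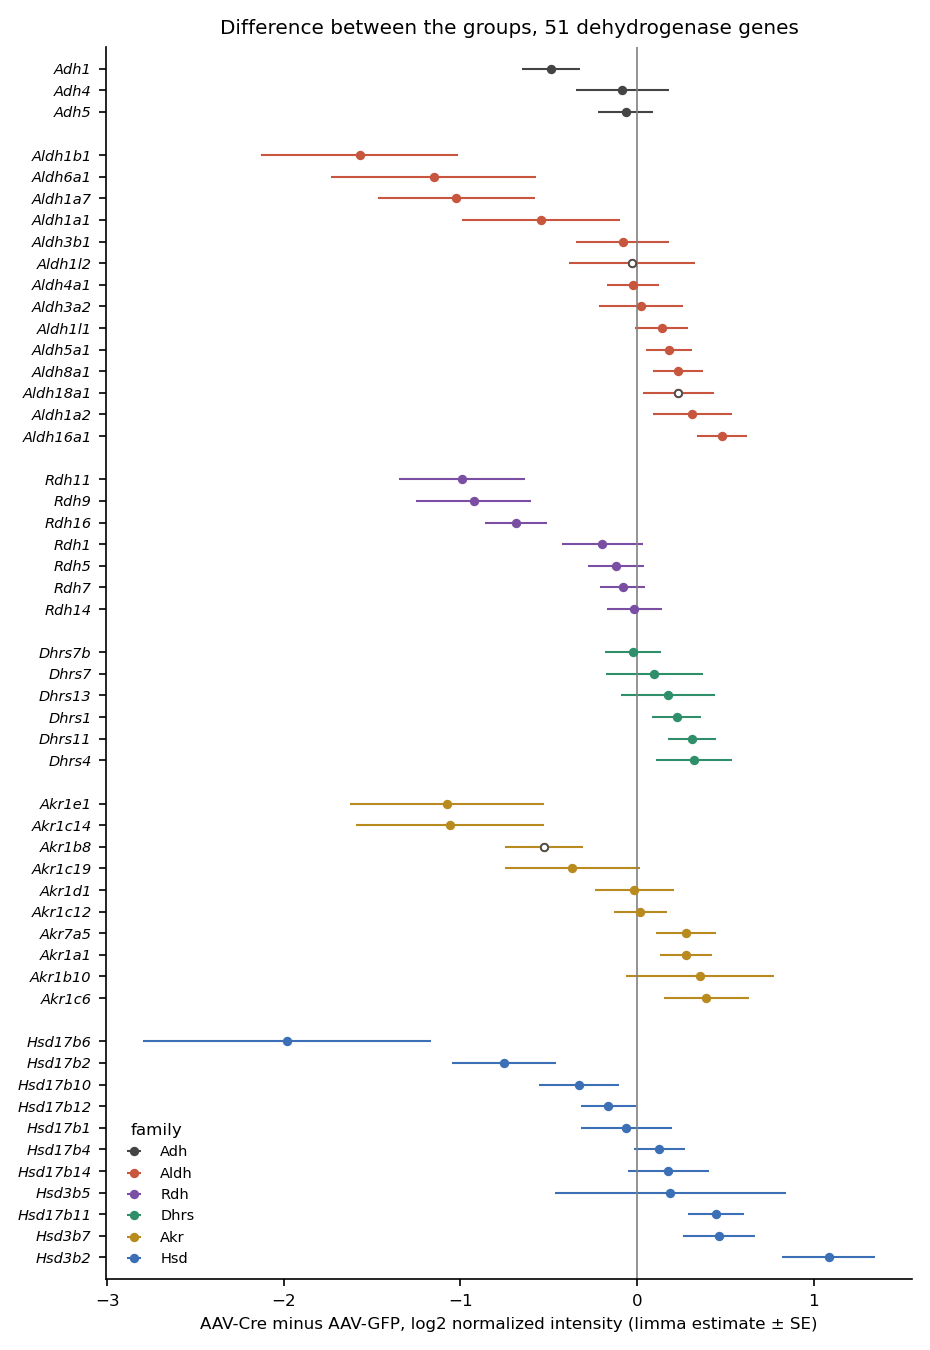
Difference between AAV-Cre and AAV-GFP for each of the 51 genes, ordered within the 6 families (vertical axis), as the limma estimate on the log2 scale (horizontal axis, points) with its standard error (bars, n = 4 arrays per group). Open grey circles mark the 3 genes detected in 1 group only, whose differences are not measured on both sides. All 7 Rdh estimates lie below 0, Hsd3b2 at 1.09 is the highest point and Hsd17b6 at -1.98 the lowest, and the widest bars are those of Hsd17b6 (0.81) and Hsd3b5 (0.65).

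The estimates were also laid out by family. All 7 Rdh genes (median -0.20, 3 at an unadjusted p under 0.05) and all 3 Adh genes (median -0.082, 1 at that p) were below 0. The Rdh median is the value of Rdh1, which was detected in 1 array of each group, and the Adh median is that of Adh4. The estimates of Rdh1, Rdh5, Rdh7, Rdh14, Adh4 and Adh5 were smaller than their standard errors, and another Rdh5 probe gave 0.35. Of 6 Dhrs genes 5 were above 0 (median 0.20) and 0 reached that p. The 14 Aldh genes were split 7 above and 7 below (median 0.0006, 1 higher and 2 lower at that p), the 10 Akr genes 5 and 5 (median 0.0024, 1 lower, the gene Akr1b8 that AAV-Cre arrays did not detect), and the 11 Hsd genes 6 and 5 (median 0.13, 3 higher and 2 lower). With AAV-Cre replicates 3 and 4 left out the Rdh median was -0.048, with Rdh5 (0.017) and Rdh14 (0.0011) above 0, Adh4 stood at 0.12 and the Dhrs median was 0.027. Without the 2 Xist-positive arrays Rdh14 (0.020) and Adh4 (0.20) were above 0. The difference between families was not tested, and the genes of a family are not replicates of each other.

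Among the alcohol dehydrogenases, Adh1 was lower in AAV-Cre. Adh1, the class I enzyme that oxidises ethanol and retinol, measured 15.61, 15.23, 15.27 and 15.86 in the AAV-GFP arrays and 14.91, 15.04, 14.95 and 15.13 in the AAV-Cre arrays. The groups did not overlap, although AAV-GFP replicates 1 and 4 lay highest and the gap between the groups was 0.10. The difference was -0.49 ± 0.17 (unadjusted p = 0.017, adjusted p = 0.535, n = 4 per group), and it was -0.25 ± 0.15 without the 2 Xist-positive arrays. The Adh1 probe reached 87.5% of the highest signal of an array, near the top of the scale. Adh4, the class II enzyme, differed by -0.082 ± 0.26, and Adh5, the class III enzyme that handles the glutathione adduct of formaldehyde, by -0.064 ± 0.16. The estimates of these 2 genes were smaller than their standard errors and turned positive in some subsets of the arrays.

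Rdh16 and Rdh11 were the Rdh genes whose groups did not overlap. Rdh16, a microsomal dehydrogenase of retinol and steroids, measured 11.09, 11.32, 10.79 and 11.50 in the AAV-GFP arrays and 10.73, 10.48, 10.41 and 10.34 in the AAV-Cre arrays. Every AAV-Cre array was below every AAV-GFP array, by a gap of 0.061 between AAV-GFP replicate 3 and AAV-Cre replicate 1. Its difference was -0.69 ± 0.18 (unadjusted p = 0.0041, adjusted p = 0.535), with -0.57 ± 0.21 without the 2 Xist-positive arrays and -0.57 ± 0.23 with AAV-Cre replicates 3 and 4 left out.

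Rdh11, a membrane-bound retinal reductase, measured 13.13, 12.91, 12.67 and 14.21 in the AAV-GFP arrays and 11.73, 12.60, 11.99 and 12.64 in the AAV-Cre arrays. The groups did not overlap, with a gap of 0.029, and AAV-GFP replicate 4 lay above every other array. The difference was -0.99 ± 0.35 (unadjusted p = 0.0214) and -0.55 ± 0.30 without the 2 Xist-positive arrays. Another Rdh11 probe gave 10.87, 10.92, 10.67 and 12.37 in AAV-GFP and 9.93, 10.51, 9.91 and 10.87 in AAV-Cre, with the same array highest and a difference of -0.90. Rdh9, another retinol and steroid dehydrogenase, measured 11.01, 11.26, 10.96 and 12.33 in the AAV-GFP arrays and 10.34, 10.15, 10.32 and 11.05 in the AAV-Cre arrays. AAV-GFP replicate 4 was again the highest, and the groups overlapped through AAV-Cre replicate 4. The difference was -0.93 ± 0.33, with -0.65 ± 0.28 without the 2 Xist-positive arrays and -1.15 ± 0.39 with AAV-Cre replicates 3 and 4 left out. Rdh1 (-0.20 ± 0.23) was detected in 1 array of each group, and Rdh7 (-0.082 ± 0.13), detected in all 8, lay between 15.07 and 15.47 in every array.

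Rdh1, Rdh9, Rdh16, Rdh7 and Hsd17b6 are neighbours in the mouse gene order (GRCm38.p6), with 0 to 2 other protein-coding genes between one and the next. Their patterns across the arrays were not shared. Rdh9 and Rdh16 were lower in AAV-Cre and lie next to each other, Rdh7 hardly differed, and Hsd17b6 was low in AAV-Cre replicates 3 and 4, by 3.19 below replicates 1 and 2, where Rdh7 was 0.068 below. Probes of such related sequences can take up RNA of one another, which was not tested here.

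**Figure D2:**
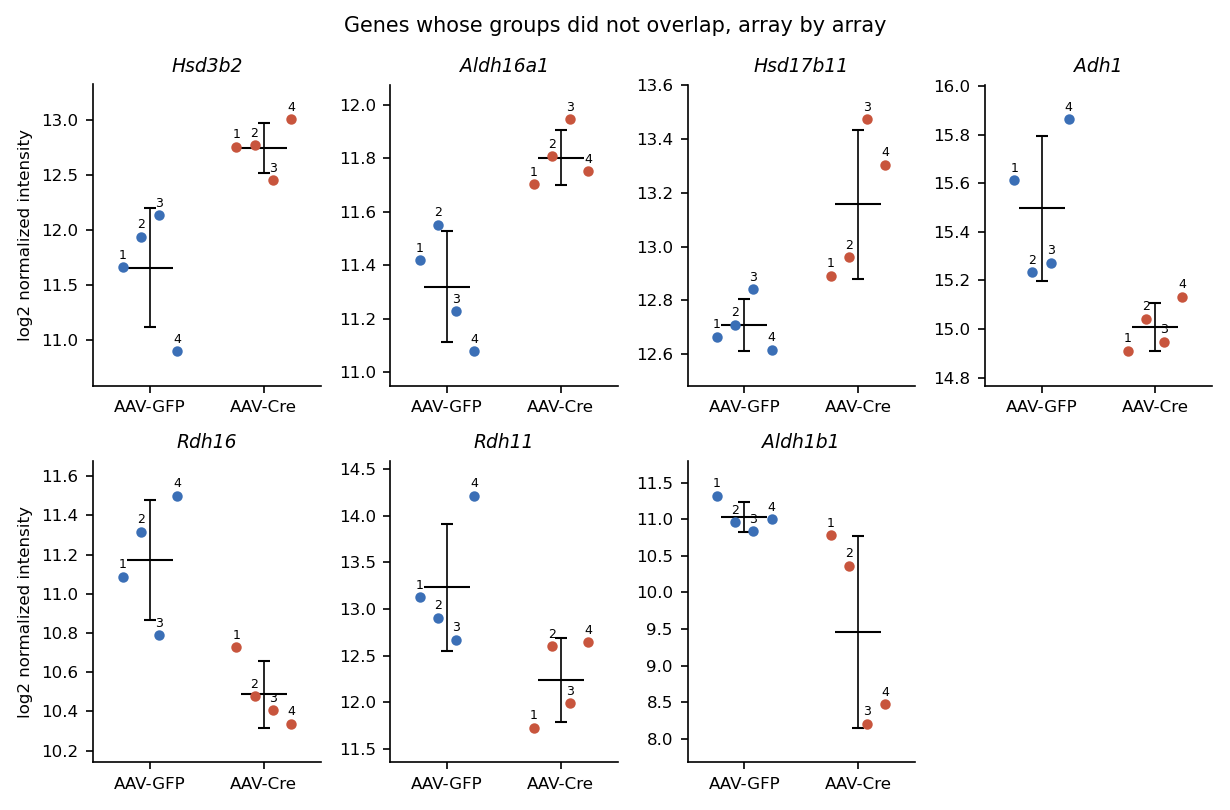
Normalized log2 intensity (vertical axes, 1 range per panel) of the 7 genes whose groups did not overlap, with 1 point per array numbered by its replicate and the mean ± SD of each group (n = 4). Hsd3b2, Aldh16a1 and Hsd17b11 lie higher in AAV-Cre, and Adh1, Rdh16, Rdh11 and Aldh1b1 lower. AAV-GFP replicate 4 lies farthest from its group's mean in Hsd3b2, Aldh16a1, Adh1 and Rdh11.

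The aldehyde dehydrogenases held both directions. Aldh16a1, an unusual family member whose function is little known, measured 11.42, 11.55, 11.23 and 11.08 in the AAV-GFP arrays and 11.70, 11.81, 11.95 and 11.75 in the AAV-Cre arrays. Every AAV-Cre array was higher than every AAV-GFP array, by a gap of 0.15 between AAV-GFP replicate 2 and AAV-Cre replicate 1. The difference was 0.48 ± 0.14 (unadjusted p = 0.00775, adjusted p = 0.535), 0.41 ± 0.17 without the 2 Xist-positive arrays and 0.44 ± 0.18 with AAV-Cre replicates 3 and 4 left out. Aldh1b1, a mitochondrial enzyme for acetaldehyde and retinal, measured 11.32, 10.96, 10.84 and 11.00 in the AAV-GFP arrays and 10.79, 10.37, 8.21 and 8.48 in the AAV-Cre arrays. The groups did not overlap, with a gap of 0.049, and AAV-Cre replicates 3 and 4 lay on average 2.23 below replicates 1 and 2. The difference was -1.57 ± 0.56 (unadjusted p = 0.0206) and -0.45 ± 0.20 with AAV-Cre replicates 3 and 4 left out. Aldh3a2, the fatty aldehyde dehydrogenase, differed by 0.024 ± 0.24.

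In a further group of genes AAV-Cre replicates 3 and 4 were set apart. These 2 arrays lay more than 1 log2 unit below the lowest of the other 6 arrays in 6 of the 51 genes (11.8%) against 2.59% of all features. They were Aldh1b1, Aldh1a7, Aldh6a1, Akr1c14, Akr1e1 and Hsd17b6, all detected in all 8 arrays. The pattern was not particular to the 51 genes. It held for 3 of the 13 steroid hormone and bile acid partners measured below (Baat, Esr1 and Ugt2b1). It also held for 1 of 14 related oxidoreductases, 1 of 12 retinoid genes and 1 of 7 hepatocyte markers. Of all 14850 features 9636 were detected in all 8 arrays, against 42 of the 51 genes. A feature near background has little room to fall by 1 unit. The same 2 arrays had the fewest detected probes, and the part of that in these genes was not tested.

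Aldh1a7, a cytosolic relative of the retinal dehydrogenase Aldh1a1, measured 13.55, 13.56, 13.39 and 13.10 in the AAV-GFP arrays and 13.02, 13.47, 11.65 and 11.38 in the AAV-Cre arrays. Aldh1a1 itself, which lies next to Aldh1a7 in the gene order, measured 14.25, 14.63, 13.86 and 13.61 in the AAV-GFP arrays and 14.27, 14.44, 12.75 and 12.69 in the AAV-Cre arrays. In both genes AAV-Cre replicates 1 and 2 lay within or near the AAV-GFP range, and replicates 3 and 4 were 1.73 (Aldh1a7) and 1.64 (Aldh1a1) below them. The differences were -1.02 ± 0.44 for Aldh1a7 and -0.54 ± 0.45 for Aldh1a1, and with AAV-Cre replicates 3 and 4 left out they were -0.16 ± 0.21 and 0.28 ± 0.29.

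Aldh6a1, the mitochondrial methylmalonate semialdehyde dehydrogenase of valine breakdown, measured 13.05, 13.11, 13.12 and 12.95 in the AAV-GFP arrays and 13.09, 13.07, 10.96 and 10.50 in the AAV-Cre arrays. The other 6 arrays lay between 12.95 and 13.12. The difference was -1.15 ± 0.58, and with AAV-Cre replicates 3 and 4 left out it was 0.024 ± 0.14. Hsd17b6, which oxidises androstanediol and retinol, measured 11.55, 11.10, 10.60 and 10.64 in the AAV-GFP arrays and 10.99, 10.18, 7.80 and 6.99 in the AAV-Cre arrays. AAV-Cre replicate 1 lay inside the AAV-GFP range and replicate 2 just below it. The difference of -1.98 ± 0.81 (unadjusted p = 0.0385) was the lowest of the 51 genes, and with AAV-Cre replicates 3 and 4 left out it was -0.39 ± 0.35.

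**Figure D3:**
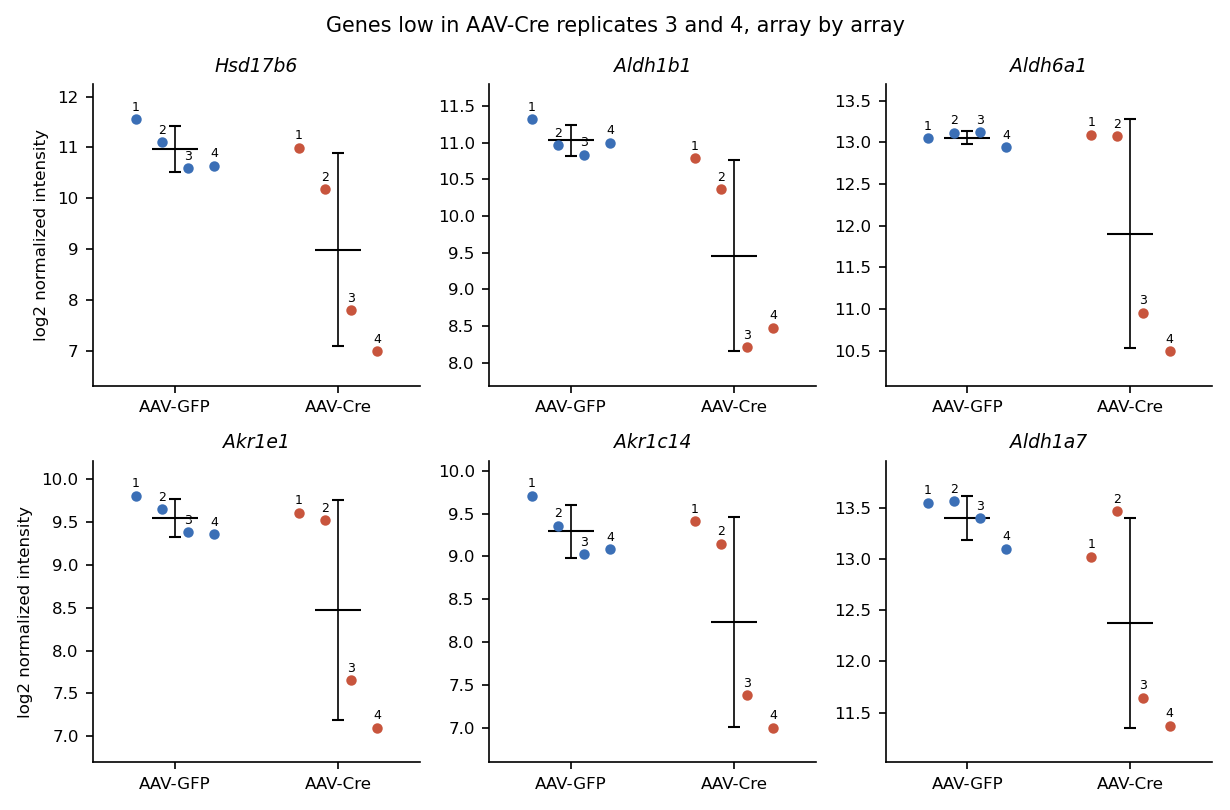
Normalized log2 intensity (vertical axes, 1 range per panel) of the 6 genes in which AAV-Cre replicates 3 and 4 lay more than 1 log2 unit below all other arrays, with 1 point per array numbered by its replicate and the mean ± SD of each group (n = 4). AAV-Cre replicates 1 and 2 lie close to the AAV-GFP arrays in each panel.

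Among the aldo-keto reductases, Akr1c14, which reduces steroid ketones, measured 9.71, 9.36, 9.02 and 9.08 in the AAV-GFP arrays and 9.41, 9.15, 7.38 and 7.00 in the AAV-Cre arrays. Akr1e1, which reduces anhydrofructose, measured 9.80, 9.65, 9.38 and 9.36 in the AAV-GFP arrays and 9.61, 9.52, 7.65 and 7.10 in the AAV-Cre arrays. In both genes the 2 low arrays were AAV-Cre replicates 3 and 4, with differences of -1.06 ± 0.53 and -1.07 ± 0.55, and without these arrays of -0.014 ± 0.23 and 0.019 ± 0.18. Akr1c19, Akr1c12 and Akr1c6 lie between Akr1c14 and Akr1e1 in the gene order, and in these 3 genes AAV-Cre replicates 3 and 4 were 0.91 above, 0.21 above and 0.25 below replicates 1 and 2, so the low values did not extend over the cluster.

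Akr1b8, a relative of aldose reductase, was detected in 2 AAV-GFP arrays and in 0 AAV-Cre arrays. It lay at 5.59 to 6.48 in AAV-GFP and 5.30 to 5.84 in AAV-Cre, so near to background that nothing is read from its difference. Akr1a1, the general aldehyde reductase, lay at 0.28 ± 0.15, and Akr1d1, the steroid reductase of bile acid synthesis, at -0.015 ± 0.22 with detection in 4 AAV-GFP and 2 AAV-Cre arrays. Akr1c6, a steroid dehydrogenase of mouse liver, differed by 0.39 ± 0.24, and by 0.64 ± 0.24 without the 2 Xist-positive arrays. Without background correction the differences of Akr1c6 (0.12), Akr1c14 (-0.56) and Akr1e1 (-0.60) were smaller.

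The hydroxysteroid dehydrogenases held the highest estimate of the 51 genes. Hsd3b2, of a gene family that oxidises and isomerises steroids, measured 11.66, 11.94, 12.14 and 10.90 in the AAV-GFP arrays and 12.76, 12.77, 12.46 and 13.01 in the AAV-Cre arrays. The groups did not overlap, with a gap of 0.32, and AAV-GFP replicate 4 was the lowest array. The difference was 1.09 ± 0.26 (unadjusted p = 0.00276, adjusted p = 0.535), with 0.71 ± 0.20 without the 2 Xist-positive arrays and 1.10 ± 0.34 with AAV-Cre replicates 3 and 4 left out. Of 6 detected Hsd3b2 probes 5 gave a positive difference (0.20 to 1.09) and 1 a negative one (-0.25). Some Hsd3b genes are close copies of one another, so which gene the Hsd3b2 probes took up is uncertain.

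Hsd3b5, which lies next to Hsd3b2 and reduces ketosteroids in male mouse liver, measured 11.64, 13.61, 12.86 and 10.08 in the AAV-GFP arrays and 12.42, 12.18, 11.93 and 12.43 in the AAV-Cre arrays. The Xist-positive AAV-GFP replicates 1 and 4 were the lowest 2 arrays and AAV-GFP replicates 2 and 3 the highest 2. The difference over all arrays was 0.19 ± 0.65, and without the 2 Xist-positive arrays it was -0.996 ± 0.26, of the opposite sign. Hsd3b7, the bile acid synthesis member of the group, measured 15.65, 15.21, 14.79 and 15.48 in the AAV-GFP arrays and 15.87, 15.55, 15.61 and 15.97 in the AAV-Cre arrays. The groups overlapped through AAV-GFP replicate 1, with a difference of 0.46 ± 0.20 (unadjusted p = 0.0498) that was 0.75 ± 0.21 without the 2 Xist-positive arrays. Its probe reached 84.0% of the highest signal of an array, near the top of the scale.

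Hsd17b11, a lipid droplet enzyme that oxidises steroids, measured 12.67, 12.71, 12.84 and 12.62 in the AAV-GFP arrays and 12.89, 12.96, 13.47 and 13.30 in the AAV-Cre arrays. Every AAV-Cre array was higher, by a gap of 0.050 between AAV-GFP replicate 3 and AAV-Cre replicate 1. The difference was 0.45 ± 0.16 (unadjusted p = 0.0205), 0.38 ± 0.21 without the 2 Xist-positive arrays and 0.22 ± 0.14 with AAV-Cre replicates 3 and 4 left out. The other Hsd17b11 probe gave 0.17. Hsd17b2, which inactivates oestradiol and testosterone, measured 13.96, 13.003, 12.71 and 13.68 in the AAV-GFP arrays and 12.53, 13.05, 12.24 and 12.53 in the AAV-Cre arrays. AAV-GFP replicates 1 and 4 were the highest 2 arrays, and the other AAV-GFP arrays lay within the range of AAV-Cre. The difference was -0.75 ± 0.30 (unadjusted p = 0.0327), and -0.27 ± 0.25 without the 2 Xist-positive arrays.

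The split of the AAV-GFP arrays was counted over all genes. AAV-GFP replicates 1 and 4 both lay above replicates 2 and 3 in 9 of the 51 genes (17.6%) against 16% of all features, and both below in 12 (23.5%) against 19.4%. Both shares lay near the background, so nothing about the 51 genes is read from this count. It also ignores the size of the split. Replicates 1 and 4 minus replicates 2 and 3 was -2.37 in Hsd3b5 and 0.97 in Hsd17b2.

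**Figure D4:**
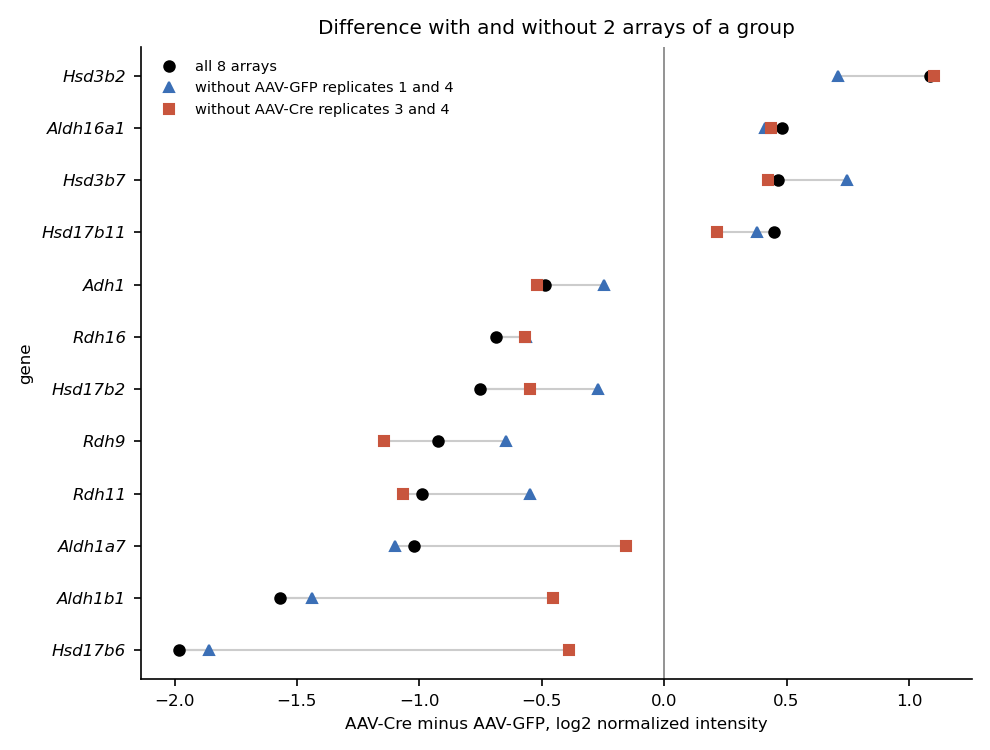
Difference between AAV-Cre and AAV-GFP on the log2 scale (horizontal axis) of the 12 genes at an unadjusted p under 0.05 that were detected in both groups (vertical axis), with all 8 arrays (circles), without the 2 Xist-positive arrays (triangles) and with AAV-Cre replicates 3 and 4 left out (squares). All 12 keep their sign, but they were chosen by their p with all 8 arrays, and both smaller sets are parts of these arrays. Of all 51 genes 45 keep their sign without the 2 Xist-positive arrays and 35 with AAV-Cre replicates 3 and 4 left out. Hsd17b6 moves from -1.98 to -0.39 and Aldh1a7 from -1.02 to -0.16 with AAV-Cre replicates 3 and 4 left out. Hsd17b2 moves from -0.75 to -0.27 without the 2 Xist-positive arrays.

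The number of genes at an unadjusted p under 0.05 depended on these arrays. Without the 2 Xist-positive arrays it was 8 (5 higher and 3 lower with Akr1b8, where 3.49% and 2.39% of all features were higher and lower). With AAV-Cre replicates 3 and 4 left out it was 4 (2 and 2, where 2.24% and 1.81% were), and the 4 genes were Hsd3b2, Aldh16a1, Rdh16 and Rdh9. Hsd3b2, Aldh16a1 and Rdh16 were past that p in both smaller sets and with all 8 arrays, and the lowest adjusted p of the 51 genes was 0.812 without the 2 Xist-positive arrays and 1.00 with AAV-Cre replicates 3 and 4 left out. The 7 genes whose groups did not overlap also did not overlap in either smaller set of arrays, which the larger set fixes.

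**Figure D5:**
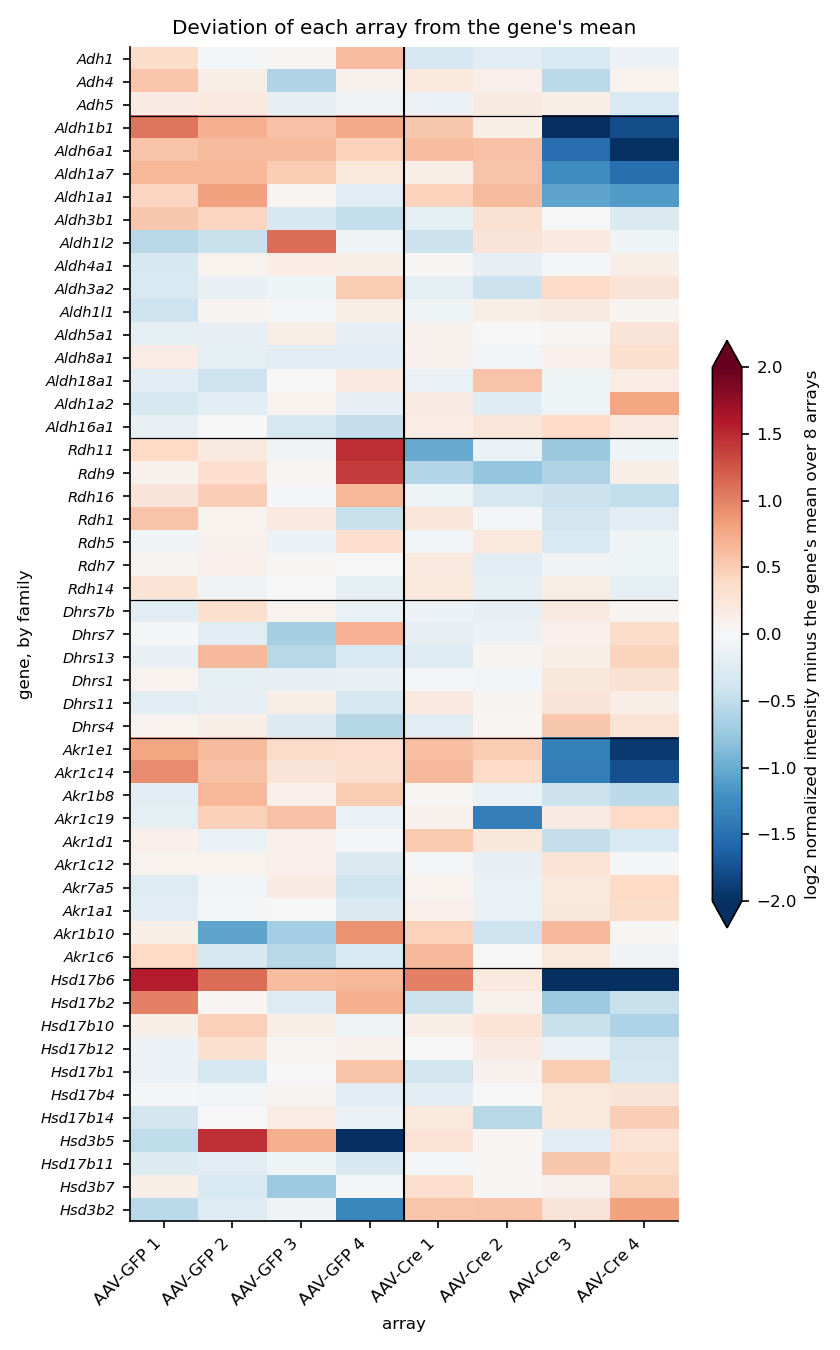
Deviation of each array (columns) from a gene's mean over the 8 arrays for the 51 genes (rows, by family), on the log2 scale as colour, with values beyond 2 shown at the end of the scale. AAV-Cre replicates 3 and 4 stand out in blue for 6 genes and Aldh1a1, and AAV-GFP replicate 4 in red for Rdh11 and Rdh9 and in blue for Hsd3b5 and Hsd3b2.

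Of the Dhrs genes Dhrs11, a reductase of steroids and other carbonyls, was 0.31 ± 0.14 (unadjusted p = 0.0504), with 10.10 to 10.58 in AAV-GFP and 10.50 to 10.71 in AAV-Cre. Dhrs4, a peroxisomal reductase of retinal and other carbonyls, was 0.32 ± 0.21 and Dhrs1 was 0.22 ± 0.14. Without the 2 Xist-positive arrays, or with AAV-Cre replicates 3 and 4 left out, these 3 genes lay between 0.070 and 0.29. Dhrs13, which was detected in 2 AAV-GFP and 3 AAV-Cre arrays, was 0.18 ± 0.27. The groups overlapped in all 6 Dhrs genes.

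The 51 genes had 78 annotated probes, all of them detected in 1 or more arrays. That was fixed beforehand, because names were given only to probes of the authors' normalized table, which was filtered on detection. The 2798 detected probes outside it had no name and were not searched for these genes. Of 18 genes with more than 1 probe 6 had probes of opposite sign, namely Aldh4a1, Aldh8a1, Dhrs7, Dhrs7b, Hsd3b2 and Rdh5. The main probe of Aldh8a1, a dehydrogenase of the kynurenine pathway, gave AAV-Cre replicates 3 and 4 0.20 above replicates 1 and 2, and a dimmer probe of it, detected in all 8 arrays, gave them 1.61 below. The 3 probes of Dhrs7 gave 0.37 above, 0.64 below and 1.20 below. Both probes of Akr1c14 were low in these 2 arrays, by 2.09 and 1.53. All 3 probes of Akr7a5, a reductase of aldehydes such as those of aflatoxin, were higher in AAV-Cre, by 0.28, 0.41 and 0.46. The main probe of Aldh4a1, the pyrroline carboxylate dehydrogenase of proline breakdown, reached 93.1% of the highest signal of an array and that of Hsd17b4, the peroxisomal multifunctional enzyme, 85.5%. Besides Adh1 and Hsd3b7, these were the probes nearest to the top of the scale, where a bead array has little room to measure a higher level.

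The promoters of the 7 genes that did not overlap were read for the GATA motif, since the excised gene encodes a GATA factor. RefSeq promoter windows (300 bases, 250 before to 50 after the start) were matched by symbol for 46 of the 51 genes. The motif was searched on both strands as GATAA and as GATAG, each preceded by A or T. It was in 15 of these 46 genes (32.6%) and in 33.0% of the 27025 genes of the table. Of the 7 genes 2 held it, Adh1 with 2 matches and Hsd17b11 with 1, and their windows are shown with the matches in capitals (GRCm38.p6, Adh1 at chr3:138277335-138277634, plus strand, Hsd17b11 at chr5:104021747-104022046, minus strand). A match is a description of these letters and shows no binding.
Adh1: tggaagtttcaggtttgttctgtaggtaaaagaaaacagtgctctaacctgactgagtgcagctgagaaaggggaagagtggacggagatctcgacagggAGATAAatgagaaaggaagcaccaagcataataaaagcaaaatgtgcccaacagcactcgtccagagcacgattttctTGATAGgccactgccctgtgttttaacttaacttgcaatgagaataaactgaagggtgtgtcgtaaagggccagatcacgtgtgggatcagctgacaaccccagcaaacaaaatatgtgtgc
Hsd17b11: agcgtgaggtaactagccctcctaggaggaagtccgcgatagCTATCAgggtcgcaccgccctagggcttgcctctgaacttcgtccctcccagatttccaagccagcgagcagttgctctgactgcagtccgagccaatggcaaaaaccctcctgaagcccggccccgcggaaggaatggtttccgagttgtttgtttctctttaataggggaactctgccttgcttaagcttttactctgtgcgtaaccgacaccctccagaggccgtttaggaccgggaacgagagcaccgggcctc

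Other genes of these pathways were set beside the 6 families in 3 lists. Of 24 related oxidoreductases outside the 6 families 14 were measured, 0 were called and 0 reached an unadjusted p under 0.05 in either direction, with a median of 0.094. Those of smallest p were Srd5a3, a polyprenol and steroid reductase, at 0.26 ± 0.12, Hsdl1 at -0.85 ± 0.40 and Hpgd, which inactivates prostaglandins, at -0.70 ± 0.34. With AAV-Cre replicates 3 and 4 left out Hsdl1 was -0.16 ± 0.18 and Hpgd -0.22 ± 0.34, and Hsdl1 was -0.45 without AAV-Cre replicate 3 alone and -0.35 without background correction. Without the 2 Xist-positive arrays Hpgd was -0.28 ± 0.38. Of 21 genes of retinoid storage, binding and signalling 12 were measured, 0 were called and 0 reached that p, with a median of 0.039. The retinol carrier of plasma, Rbp4, measured 13.83, 13.86, 13.66 and 13.11 in the AAV-GFP arrays and 13.46, 13.90, 11.44 and 11.15 in the AAV-Cre arrays, with the same 2 arrays low as in Aldh6a1, and differed by -1.13 ± 0.60 over all arrays and by 0.066 ± 0.26 without those 2. The retinoic acid receptor gene Rarg differed by 0.37 ± 0.18 and Dgat1, which makes triglycerides and retinyl esters, by 0.37 ± 0.21. Rarg was 0.10 without background correction, and Dgat1 was 0.12 ± 0.24 without the 2 Xist-positive arrays and 0.14 ± 0.23 with AAV-Cre replicates 3 and 4 left out.

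Of 19 steroid hormone and bile acid partners 13 were measured, 0 were called, and at an unadjusted p under 0.05 2 were higher and 1 was lower, with a median of -0.16. Cyp39a1, an oxysterol hydroxylase, measured 8.52, 8.02, 8.23 and 9.57 in the AAV-GFP arrays and 7.15, 7.09, 7.64 and 7.51 in the AAV-Cre arrays, and every AAV-Cre array was below every AAV-GFP array (difference -1.24 ± 0.32). Cyp7b1, another oxysterol hydroxylase, measured 14.09, 14.82, 15.20 and 14.67 in the AAV-GFP arrays and 15.25, 15.57, 15.45 and 15.35 in the AAV-Cre arrays, and every AAV-Cre array was higher (0.71 ± 0.22). Cyp7b1 is also on the list of male-biased genes used here, and its lowest array was the Xist-positive AAV-GFP replicate 1. Cyp8b1, the sterol hydroxylase that sets the kind of bile acid made, measured 14.32, 15.92, 14.46 and 14.68 in the AAV-GFP arrays and 15.45, 15.53, 15.89 and 16.02 in the AAV-Cre arrays, with AAV-GFP replicate 2 inside the AAV-Cre range (0.88 ± 0.34). Without the 2 Xist-positive arrays all 3 differences were smaller, at -0.78 ± 0.21 for Cyp39a1, 0.39 ± 0.18 for Cyp7b1 and 0.53 ± 0.41 for Cyp8b1. Without background correction Cyp39a1 was -0.62.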

How the data were processed

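Total RNA was labelled and hybridised by the authors to Illumina MouseWG-6 v2 bead arrays, and signals with their detection p-values were exported from GenomeStudio. The deposited non-normalized table holds a linear intensity for 45281 probes in 8 arrays, and the deposited detection p-value compares a probe with the negative control beads. The authors' value table holds quantile-normalized intensity for 16820 probes and was used as an alternative. Its symbols come from the platform annotation, which can be old, and 14408 of its probes had 1 symbol, 7 several and 2405 none. For 2798 other detected probes no name was given here.

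The deposited intensities were background-corrected by normexp from the detection p-values and an added offset of 16, followed by quantile normalization and a log2 transform (neqc of limma 3.58.1 in R 4.3.3). The 19618 probes with a detection p-value of at most 0.05 in at least 1 array were kept, and a gene was taken as its probe of the highest mean. The groups were compared with limma's linear model and empirical Bayes moderation, with no covariate. Benjamini-Hochberg adjustment ran over 14850 features and calls were made at 0.25, a threshold of the study's methods. All p-values come from this fit. Arrays give no depth, so their number limits the precision, and a log2 difference had a median standard error of 0.20. Nothing in the labels assigns each sample to a mouse of its own, so p-values measure only the spread between these samples, which may be technical. The scripts were checked on simulated data.

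The 51 genes and the gene lists were chosen with earlier results of these data known. Genes were named by a rule: 18 fixed genes, of which 14 were measured, up to 4 per family of the smallest p, genes whose groups did not overlap, and up to 3 per list. Aldh2, Hsd11b1, Hsd17b13 and Dhrs3 were not measured under a name here, and 1 gene that the prefix matches is not reported here. Of the 51 genes 51 were in the reference gene table (GRCm38.p6). The alternatives were other background corrections, offsets, normalizations and filters, the authors' values, another choice of probe, another variance model, weights for arrays, the replicate number as a block, Xist as a term, fewer arrays and SAM. Where arrays were left out the normalization, filter and probe choice were kept. The fit without 4 arrays, the fit over features detected in both groups, SAM on the authors' value table and a finer grid of SAM cut-offs were chosen after seeing the data, the last after the first grid had called 0 features. Plots were made in matplotlib 3.10.9.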

Additional observations from a re-analysis of the deposited data

How the results depend on the processing

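No gene of the 51 was called by limma under any alternative. Over the alternatives 45 values of the named genes changed sign and 887 kept their direction, all of the 887 uncalled. The 887 do not measure stability, because some alternatives could not move an estimate. These were no detection filter, trend and robust eBayes, the replicate block and the features detected in both groups. SAM, the statistic of the study's methods, called 0 features and 0 of the 51 genes on the values used here. A finer grid of cut-offs, written after that count was seen, called 28 features (8 higher) and 0 of the 51, so the count of features depends on the grid. On the authors' value table SAM called 322 of 12052 features (290 higher). It called 3 of the 51 genes there, Hsd3b2, Aldh16a1 and Hsd17b11, all higher, where limma called 3 features and 0 of the 51. The number of features called by limma was 2 without background correction, with an offset of 50, with cyclic loess, with scaling to the 75th percentile, with detection in a whole group, with trend and robust eBayes, with array weights and with Xist as a term, 0 over features detected in both groups (1104 at an unadjusted p under 0.05) and 1 to 5 when 1 array was left out. Nothing in the labels pairs the same-numbered samples of the groups. Their correlations were 0.19, 0.065, 0.024 and 0.12, and differently numbered samples were not set beside them, so pairing was not tested. With the replicate block 0 of the 51 genes were called and 1493 features were at an unadjusted p under 0.05 against 1345.

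Of the 51 genes 13 were at an unadjusted p under 0.05, beside 1345 of all 14850 features. With Xist as a term, which gives the same estimates as leaving out the 2 Xist-positive AAV-GFP arrays, it was 6 beside 845. Without those arrays it was 8 beside 874. With AAV-Cre replicates 3 and 4 left out it was 4 beside 601, and without all 4 of these arrays 5 beside 839. When 1 array was left out it was 5 to 16, beside 763 to 2230 of all features. It was 5 beside 849 without AAV-Cre replicate 3, 6 beside 763 without AAV-Cre replicate 4 and 16 beside 1986 without AAV-Cre replicate 2. The count over all features therefore moved as well. The number whose groups did not overlap was 7 (13.7%, against 4.81% of all features), and it was 4 (7.84% against 4.28%) with scaling to the 75th percentile, 17 (33.3% against 16.1%) without the 2 Xist-positive AAV-GFP arrays and 23 (45.1% against 35%) without all 4 arrays. It was 7 to 12 when 1 array was left out, with 12 (23.5%) without AAV-GFP replicate 1 (9.08% of all features) or AAV-Cre replicate 2 (10.6%). Fewer arrays overlap less by construction. Otherwise the cause was not tested.

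The family medians ranged from -0.30 to -0.021 (Adh), -0.058 to 0.097 (Aldh), -0.082 to 0.059 (Akr), 0.044 to 0.17 (Hsd), 0.11 to 0.28 (Dhrs) and -0.38 to -0.11 (Rdh) when 1 array was left out. The Aldh median was 0.13 with scaling to the 75th percentile, the Dhrs median 0.027 with AAV-Cre replicates 3 and 4 left out, and the Rdh median -0.40 with detection in a whole group and -0.048 with AAV-Cre replicates 3 and 4 left out. The Hsd median was 0.047 without background correction and on the authors' value table, 0.24 with scaling to the 75th percentile, 0.033 with detection in a whole group, 0.011 with array weights, 0.021 with Xist as a term and without the 2 Xist-positive AAV-GFP arrays, 0.0037 with AAV-Cre replicates 3 and 4 left out and -0.092 without all 4 arrays.

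The sign turned for Adh4 (0.20), Akr1d1 (0.013) and Hsd3b5 (-0.996) with Xist as a term and without the 2 Xist-positive AAV-GFP arrays. With AAV-Cre replicates 3 and 4 left out it turned for Adh4 (0.12), Akr1e1 (0.019), Akr1d1 (0.37), Aldh6a1 (0.024), Aldh1a1 (0.28), Aldh3a2 (-0.29), Dhrs13 (-0.016) and Rbp4 (0.066). Without all 4 arrays it turned for Adh5 (0.012), Adh4 (0.40), Akr1c14 (0.089), Akr1e1 (0.053), Akr1d1 (0.40), Aldh1a1 (0.12), Aldh3a2 (-0.18), Dhrs4 (-0.0036), Dhrs13 (-0.15), Hsd3b5 (-0.94), Hpgd (0.20) and Dgat1 (-0.12). It turned for Adh5 (0.011) and Akr1d1 (0.12) with scaling to the 75th percentile, for Akr1d1 without background correction (0.0011) and on the authors' value table (0.0023), for Aldh3a2 with cyclic loess (-0.031) and for Hsd3b5 with array weights (-0.094). With 1 array left out the difference ran from -0.30 to 0.090 for Adh4, -0.13 to 0.025 for Adh5, -0.19 to 0.14 for Akr1d1, -0.10 to 0.19 for Aldh3a2 and -0.47 to 0.71 for Hsd3b5, and it changed sign in no other named gene. Genes such as Akr1b8 and Rdh1 lay near background, where a bead array limits what can be measured.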
